A study of Mus musculus with 16 samples.

Results

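The CXCR3 ligand chemokine genes Cxcl9, Cxcl10 and Cxcl11 form a cluster on mouse chromosome 5. H3K27ac peaks were assigned to this cluster when their summit lay within 50 kb of any annotated start site of the 3 genes on mm10, which spans chr5:92278078-92415485. Of 171291 peaks in 4 lists, 52 met this rule. They comprised 8 of 43533 peaks in Control and 14 of 40708 in IFNγ, and 13 of 44090 in PJ34 and 17 of 42960 in IFNγ+PJ34. Peaks that overlapped by at least 1 bp in any list were merged, giving 19 regions of 55218, which are numbered 1 to 19 in the order of their coordinates.

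The data are H3K27ac ChIP-seq peak lists from primary bone marrow-derived macrophages (BMDMs), grown in culture from the marrow of C57Bl6 mice of 8 to 12 weeks. Control cells were untreated, IFNγ cells received 100 ng/mL interferon gamma for 1 h, PJ34 cells received the PARP inhibitor at 20 µM, and IFNγ+PJ34 cells received PJ34 1 h before IFNγ. No genetic change is given for the mice of any group, and the comparisons with PJ34 against those without it rest on a chemical inhibitor. The comparison of IFNγ with Control involves no inhibitor. Each condition had 2 ChIP replicates and 2 inputs, and the authors combined the replicates into 1 list, so that values below have no replicate error and no test between conditions could be made. Of 8 macrophage markers, 8, 8, 7 and 7 had a promoter peak in Control, IFNγ, PJ34 and IFNγ+PJ34, against 0 in every list for the 2 natural killer cell markers and for the 3 fibroblast markers. Spi1 had a promoter peak in every list, and Csf1r in all but IFNγ+PJ34. By score percentile within a list, 0 of the 8 macrophage markers were higher in IFNγ than in Control. Of these markers 3 were at least 20 points lower, and the median change was -13.5 points. At most 1 of 4 markers had a promoter peak for T cells, for B cells and for neutrophils and their precursors, 1 of 3 had it for dendritic cells, and 1 or 2 of the 2 endothelial markers did.

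CXCR3 is a chemokine receptor of activated T cells and natural killer cells, and Cxcl9, Cxcl10 and Cxcl11 encode the secreted proteins that attract these cells through it. IFNγ acts through the kinases JAK1 and JAK2 on genes with GAS elements, while IRF proteins bind the related ISRE and NF-κB binds sites of its own. Macrophages are a well-known source of Cxcl9 and Cxcl10 after exposure to IFNγ. In this mouse strain, Cxcl11 carries a frameshift, and the annotation lists it as a polymorphic pseudogene. H3K27ac, an acetylation of histone H3, marks active promoters and enhancers.

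All 3 genes lie on the minus strand, so that upstream of them means a higher coordinate. Cxcl9 (ENSMUSG00000029417.9) spans chr5:92321347-92328079, Cxcl10 (ENSMUSG00000034855.13) spans chr5:92346638-92348889 and Cxcl11 (ENSMUSG00000060183.6) spans chr5:92359544-92365485. Cxcl10 and Cxcl11 both sit within Art3, an ADP-ribosyltransferase family gene on the plus strand at chr5:92331827-92414628, and most regions upstream of the chemokine genes are therefore Art3 introns. On the other side lie Sdad1 and Naaa, the gene of a lipid-degrading acid amidase.

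The promoters of Cxcl9 and Cxcl10 are shown first because Cxcl9 had a promoter peak in the 2 lists with IFNγ alone and Cxcl10 ranked higher in them. The 250 bases before each start site were taken from RefSeq (GRCm38.p6) and are written 5′ to 3′ on the minus strand. Capitals mark matches on either strand to GAAANNGAA, a part of the ISRE, or to GGNNNTTCC, a part of the NF-κB site. Cxcl11 had no entry in the promoter table.
Cxcl9 promoter, chr5:92328080-92328329: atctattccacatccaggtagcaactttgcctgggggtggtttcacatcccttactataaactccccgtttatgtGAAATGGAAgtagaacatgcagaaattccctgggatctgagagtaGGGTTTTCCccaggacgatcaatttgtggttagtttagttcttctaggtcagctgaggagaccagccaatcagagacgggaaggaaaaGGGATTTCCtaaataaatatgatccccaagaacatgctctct
Cxcl10 promoter, chr5:92348890-92349139: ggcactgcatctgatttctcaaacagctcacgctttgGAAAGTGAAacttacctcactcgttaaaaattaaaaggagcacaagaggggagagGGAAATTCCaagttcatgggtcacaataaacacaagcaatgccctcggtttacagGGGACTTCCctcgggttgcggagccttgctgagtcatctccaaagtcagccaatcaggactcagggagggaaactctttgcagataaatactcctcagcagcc

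Each promoter held 1 match to the ISRE part, which began 175 bases before the start of Cxcl9 and 213 bases before that of Cxcl10. Each also held 2 matches to the NF-κB part, at 130 and 42 bases in Cxcl9 and at 158 and 103 bases in Cxcl10. Of 32851 promoters of the same length, 7.13% held the ISRE part and 15.7% the NF-κB part. The GAS letters TTCNNNGAA were in neither window and in 7.02% of all promoters. A control with the ends exchanged, GAANNNTTC, was likewise in neither window and in 5.46% of all.

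The GAS letters were found 11 times in 6 regions of the cluster. Of these matches, 8 lay upstream of a chemokine start site, in regions 8, 9, 13, 14 and 15, and 3 lay in region 2, downstream of Cxcl9 near Naaa. The sites of region 9, upstream of Cxcl9, and of region 15, upstream of Cxcl11, are shown with 20 bases on either side. Among the regions with GAS letters, they were chosen because their highest-scoring peak ranked at least 20 points higher in IFNγ than in Control. Regions 10 and 11 ranked higher by 49.8 and 40.2 points and held 0 matches to the GAS letters. Region 2 changed by -1.73 points. Both sites of region 9 lay in its smaller IFNγ peak, at a score percentile of 46.7 and absent from Control. Its highest-scoring IFNγ peak, at 91.2, held neither site. Sequences are from the plus strand of GRCm38.p6, and capitals mark TTCNNNGAA.
Region 9, chr5:92330849-92330897: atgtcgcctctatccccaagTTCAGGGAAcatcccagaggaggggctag
Region 9, chr5:92331073-92331121: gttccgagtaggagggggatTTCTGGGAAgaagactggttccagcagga
Region 15, chr5:92366628-92366676: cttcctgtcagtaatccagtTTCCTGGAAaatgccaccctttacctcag
Region 15, chr5:92369995-92370043: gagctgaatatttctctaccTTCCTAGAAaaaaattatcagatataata
Region 15, chr5:92370707-92370755: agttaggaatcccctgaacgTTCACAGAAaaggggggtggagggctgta

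The bases around a summit are shown for region 9 (the IFNγ summit, in an Art3 intron) and for region 13, upstream of Cxcl10 (the Control summit, also in an Art3 intron). Each stretch has 300 bases of the plus strand of GRCm38.p6, with matches to the GAS letters and to the ISRE and NF-κB parts in capitals.
Region 9, chr5:92332019-92332318: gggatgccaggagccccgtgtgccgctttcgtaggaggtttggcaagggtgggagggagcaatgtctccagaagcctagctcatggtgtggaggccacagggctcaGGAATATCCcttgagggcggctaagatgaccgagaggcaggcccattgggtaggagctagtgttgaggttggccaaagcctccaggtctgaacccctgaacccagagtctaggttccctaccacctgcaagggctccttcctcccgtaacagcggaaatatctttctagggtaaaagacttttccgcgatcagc
Region 13, chr5:92353449-92353748: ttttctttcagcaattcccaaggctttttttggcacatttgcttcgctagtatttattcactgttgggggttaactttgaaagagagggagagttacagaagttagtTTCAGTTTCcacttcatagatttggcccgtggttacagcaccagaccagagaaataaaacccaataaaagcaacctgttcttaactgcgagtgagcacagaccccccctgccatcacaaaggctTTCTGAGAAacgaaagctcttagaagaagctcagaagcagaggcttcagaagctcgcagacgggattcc

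The region 9 stretch held 1 match to the NF-κB part, and the region 13 stretch held 1 match to the ISRE part and 1 to the GAS letters. Of all 300-base windows centred on the 40708 IFNγ summits, 15.1% held the NF-κB part, 9.88% the ISRE part, 8.61% the GAS letters and 6.81% the exchanged control. The region 13 stretch is centred on its Control summit, and the shares over Control summits were not computed. The 300 bases around its IFNγ summit, at 92353224, held no match to the GAS letters or to either part. Over whole regions, 6 of 19 held the GAS letters, with 11 matches in 33.9 kb or 0.324 per kb, against 0.34 per kb over all regions. The ISRE part was in 13 of the 19 regions at 0.531 per kb against 0.401, the NF-κB part in 9 at 0.737 per kb against 0.558, and the exchanged control in 7 at 0.265 per kb against 0.255. Region 15 alone, at 5641 bp, held 3 GAS, 3 ISRE and 7 NF-κB matches, and windows of its length around the middle of all regions held at least 1 match in 84.3%, 86.1% and 92.3% of cases. A match describes letters and not a bound site.

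To determine how much of the cluster was marked in each condition, the number and length of its peaks were compared. The list with IFNγ had more peaks and a larger length under peaks over the chemokine genes, both without and with PJ34. The median peak was not wider, at 1330 bp in Control against 1200 bp in IFNγ, and with PJ34 at 1200 bp without IFNγ against 930 bp with it. The 8 Control peaks covered 12.5 kb and the 14 IFNγ peaks 24.4 kb, 1.96 times as much, whereas the whole IFNγ list covered 0.808 times the length of the Control list. The 13 PJ34 peaks covered 13.9 kb, 1.11 times the Control length. The 17 IFNγ+PJ34 peaks covered 29.0 kb, which was 2.09 times the PJ34 length and 1.19 times the IFNγ length (0.921 and 1.04 for the whole lists). Within 10 kb of a start site, the lengths were 9.77, 21.3, 9.61 and 23.3 kb in the same order. By region, Control had peaks in 9 of 19 regions and IFNγ in 13, PJ34 in 8 and IFNγ+PJ34 in 17. These counts include region 1, whose Control and IFNγ+PJ34 summits lay just outside the window. Region 15 was called as 5 peaks in PJ34 and as 1 in Control, although it was a single region.

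**Figure D1:**
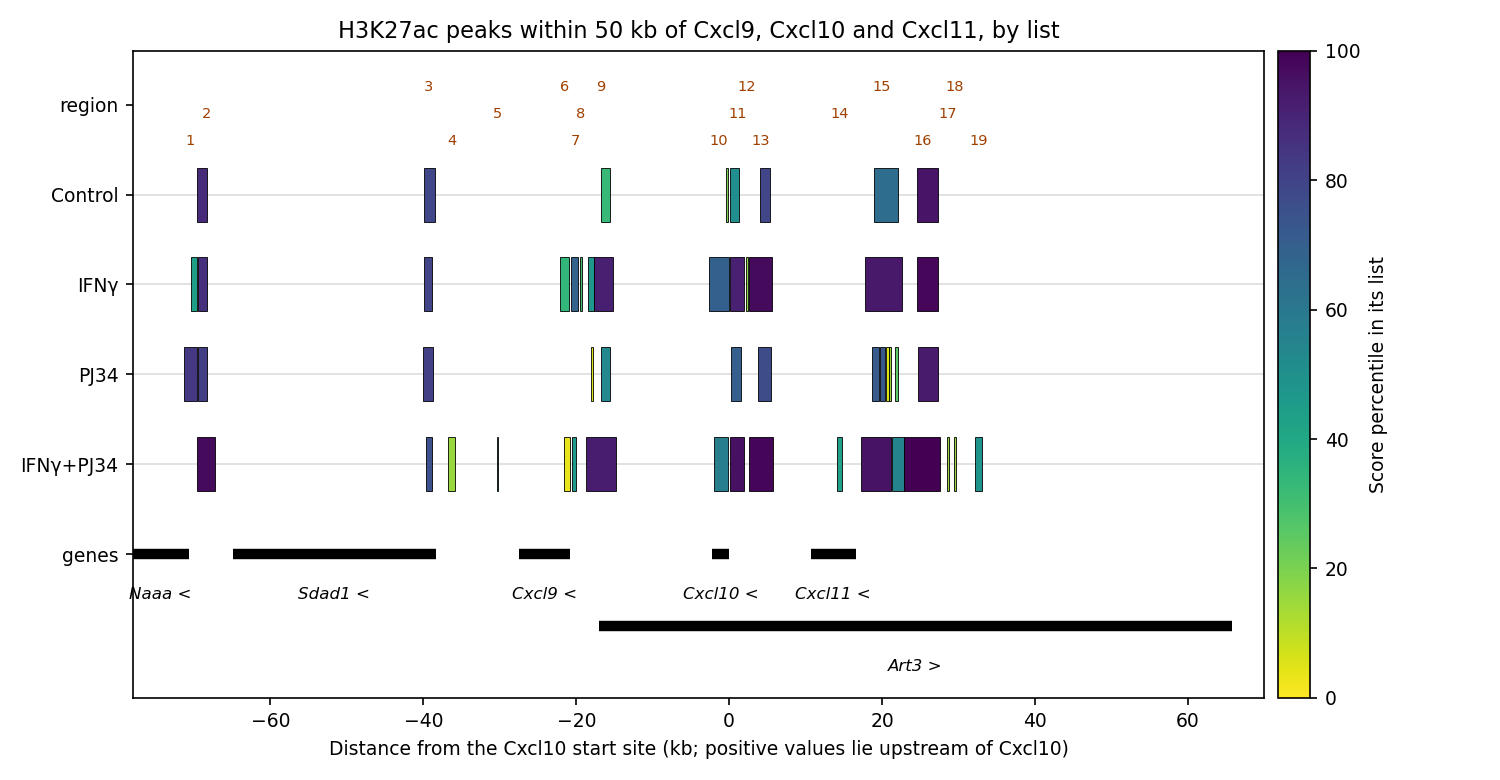
Peaks of the cluster in the 4 lists, drawn to scale by distance from the Cxcl10 start site in kb and coloured by score percentile, with region numbers above and genes below (< minus strand, > plus strand). Regions 9, 11, 13 and 15 were wider and of higher percentile in IFNγ and IFNγ+PJ34 than in Control and PJ34, the small peaks of regions 8 and 12 were in IFNγ alone, and the 17 IFNγ+PJ34 peaks extended furthest upstream.

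The rank of a peak was read as its score percentile, the percent of peaks in its own list with a lower score. In IFNγ, 5 of 14 peaks were in the highest-scoring 10% of the list, in IFNγ+PJ34 6 of 17, and in Control and PJ34 1 of 8 and 1 of 13. Lists can differ in depth, which the files do not give, and how far ranks, scores and folds depend on it was not tested.

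Cxcl9, the chemokine gene nearest to Sdad1, had no promoter peak in untreated cells. Region 7 (chr5:92328244-92329171), whose summit was 560 bp upstream of the start site in IFNγ, had no peak in Control and none in PJ34. In IFNγ it had a fold enrichment of 10.3, a score percentile of 68.5 and a width of 928 bp. In IFNγ+PJ34 it had a fold enrichment of 3.84, a percentile of 45.6 and a width of 577 bp. The peak was thus present in the lists of both IFNγ conditions, and its rank differed by -22.9 points in IFNγ+PJ34 against IFNγ. Of the 12932 IFNγ peaks at or above the percentile of 68.5, 140 (1.08%) were absent from Control. The peak of region 7 set this limit and lay at the lower edge of that set. Over the whole IFNγ list the share was 16.8%, and the peaks absent from Control had a median percentile of 24.3. The share among peaks of similar rank was not computed. Region 6, whose IFNγ summit lay in a Cxcl9 intron 300 bp inside the gene, showed the same order, with no peak in Control or PJ34, a percentile of 34.3 in IFNγ and 3.47 in IFNγ+PJ34.

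Of the 9 regions with a peak in both Control and IFNγ, the largest difference was upstream of Cxcl9. Region 9 (chr5:92330179-92334040) covers the start site of Art3, and its highest-scoring peak had its summit 4.09 kb upstream of Cxcl9 in IFNγ. Its fold enrichment was 4.45 in Control and 32.8 in IFNγ, and 5.82 in PJ34 and 29.4 in IFNγ+PJ34. Its percentile was 32.5, 91.2, 52.9 and 92.2 in the same order. In fold and percentile, the 2 lists with IFNγ were close to each other and far above the 2 without it. Its summit did not lie at the same position in these lists. It differed by 822 bp between Control and IFNγ, as far as in 3.16% of regions. Between IFNγ and IFNγ+PJ34 the difference was 559 bp (8.59% of regions), and between PJ34 and IFNγ+PJ34 it was 64 bp (43.1%). Its fold ratio of IFNγ to Control was 7.37, a value reached by 4 of 25925 regions with a peak in both lists, for which the median ratio was 0.777. With PJ34 in both lists, the fold ratio was 5.05 against a median of 0.954. These peaks cannot be assigned to Cxcl9 or to Art3 from the lists.

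Cxcl10 had a promoter peak in every list. At the promoter (region 11, chr5:92349031-92350894), the fold enrichment was 6.53 in Control and 20.0 in IFNγ, and 10.7 in PJ34 and 42.2 in IFNγ+PJ34. The percentile was 50.7, 90.9, 70.3 and 95.8, which put the promoter higher in each IFNγ list than in the list without IFNγ, and higher with PJ34 than without it. The Control peak was 1164 bp wide and the IFNγ peak 1864 bp. In the gene body (region 10), Control had a peak of 214 bp at a percentile of 19.9, IFNγ a peak of 2654 bp at 69.8 that reached past the end of the gene, and IFNγ+PJ34 a peak of 1905 bp at 57.4, whereas PJ34 had none.

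Region 13 (chr5:92351451-92354667), 4.34 kb upstream of Cxcl10 by its IFNγ summit, had percentiles of 79.2, 97.5, 77.1 and 98.8 in Control, IFNγ, PJ34 and IFNγ+PJ34, and fold enrichments of 20.9, 48.9, 9.83 and 41.7. The summit itself differed with IFNγ. It lay at 92353599 in Control and 92353605 in PJ34, and at 92353224 in IFNγ and 92353225 in IFNγ+PJ34, that is 375 bp and 380 bp closer to Cxcl10. Differences at least this large were seen in 13.4% of regions between IFNγ and Control and in 16.1% between IFNγ+PJ34 and PJ34, where the median was 48 and 49 bp. The ISRE and GAS matches shown above flank the Control summit.

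Cxcl11 had a peak at a start site in IFNγ+PJ34 cells alone. This peak (region 14, chr5:92362953-92363629) had its summit 68 bp from the internal start site at 92363277, a fold enrichment of 6.01 and a percentile of 43.6. Its position covers an exon of Cxcl11 and an intron of Art3. At the outer start site at 92365485, no list had a summit within 1 kb.

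Upstream of Cxcl11 lay regions 15 and 16, the latter with the highest rank of the cluster. Region 15 (chr5:92366078-92371718), 3.4 kb upstream of Cxcl11, had percentiles of 64.6, 93.4, 72.8 and 95.2 in Control, IFNγ, PJ34 and IFNγ+PJ34, with fold enrichments of 8.47, 37.2, 9.88 and 33.0. Region 16 (chr5:92371779-92376511), 9.8 kb upstream of Cxcl11, had the highest score of the cluster in every list. It ranked at 94.6 in Control and 98.4 in IFNγ, and at 92.6 in PJ34 and 99.98 in IFNγ+PJ34, where 7 of 42960 peaks scored higher. Its fold enrichment was 52.3 in Control and 41.1 in IFNγ, and 34.0 in PJ34 and 106 in IFNγ+PJ34. Fold and rank thus did not order Control and IFNγ alike. The fold ratio of IFNγ to Control here, 0.786, was near the median of all regions, while that of IFNγ+PJ34 to IFNγ was 2.58 against a median of 1.1. The IFNγ+PJ34 peak was 4733 bp wide against 2738 bp in IFNγ. The region held no GAS match, which windows of its length had in 79.1% of cases.

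**Figure D2:**
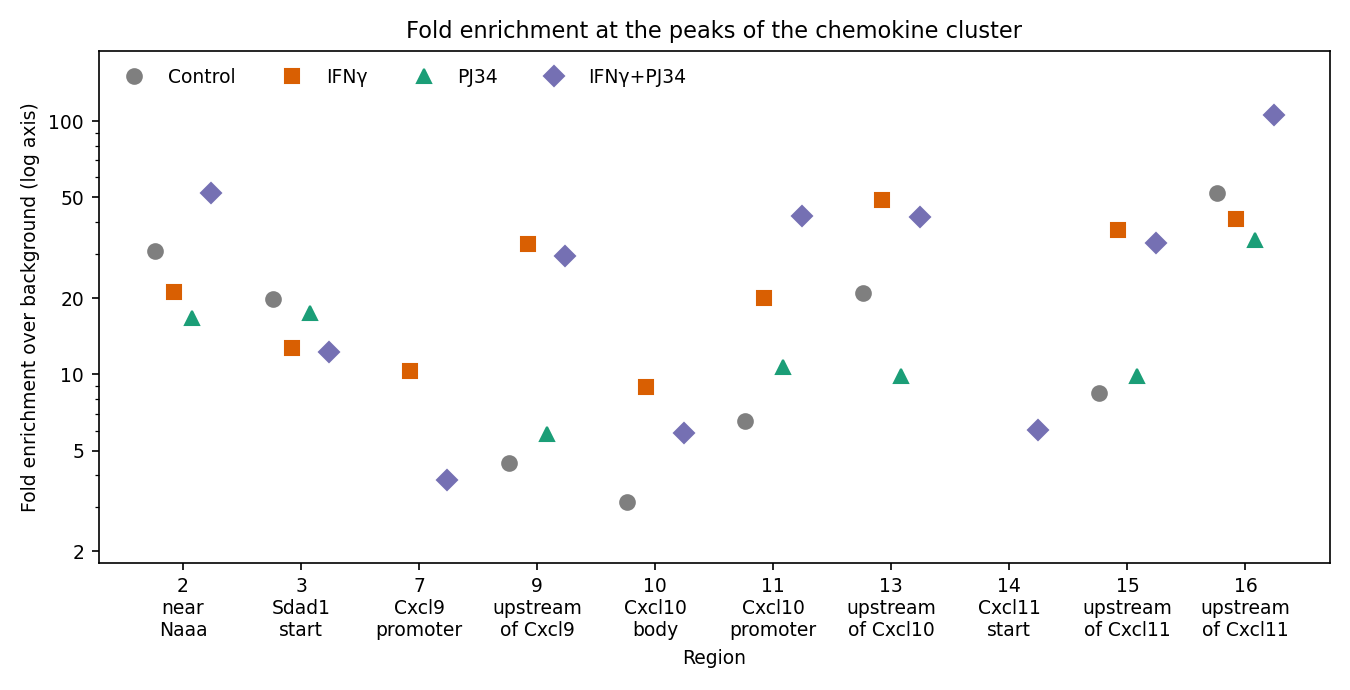
Fold enrichment over background, on a log axis, of the highest-scoring peak of each named region in the 4 lists, with no point where a list had no peak. Regions 9, 11, 13 and 15 were higher in IFNγ than in Control and in IFNγ+PJ34 than in PJ34, and region 16 reached 106 in IFNγ+PJ34.

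Regions 1 to 3, at Naaa and Sdad1, differed less between Control and IFNγ, by at most 5.86 points. At the Sdad1 start (region 3), the percentiles were 78.7, 79.8, 80.7 and 75.6 in Control, IFNγ, PJ34 and IFNγ+PJ34, and the fold enrichments 19.8, 12.7, 17.5 and 12.3. Region 2 (chr5:92279332-92281633), an intergenic site near Naaa at 48.5 kb from Cxcl9, had percentiles of 87.9, 86.2, 81.4 and 97.4 and fold enrichments of 30.7, 21.1, 16.7 and 52.3, which put it higher in IFNγ+PJ34 than in PJ34, with a fold ratio of 3.13. Region 1, at the Naaa start, lay on the boundary of the window. Its highest-scoring summit was 50019 bp from Cxcl9 in Control, 50041 bp in IFNγ and 50008 bp in IFNγ+PJ34, all just outside, and 49993 bp in PJ34, just inside, with percentiles of 82.3, 76.4, 84.0 and 83.9. A weaker peak of region 1, at 49014 bp and a percentile of 44.0, was the outermost IFNγ peak inside the window.

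**Figure D3:**
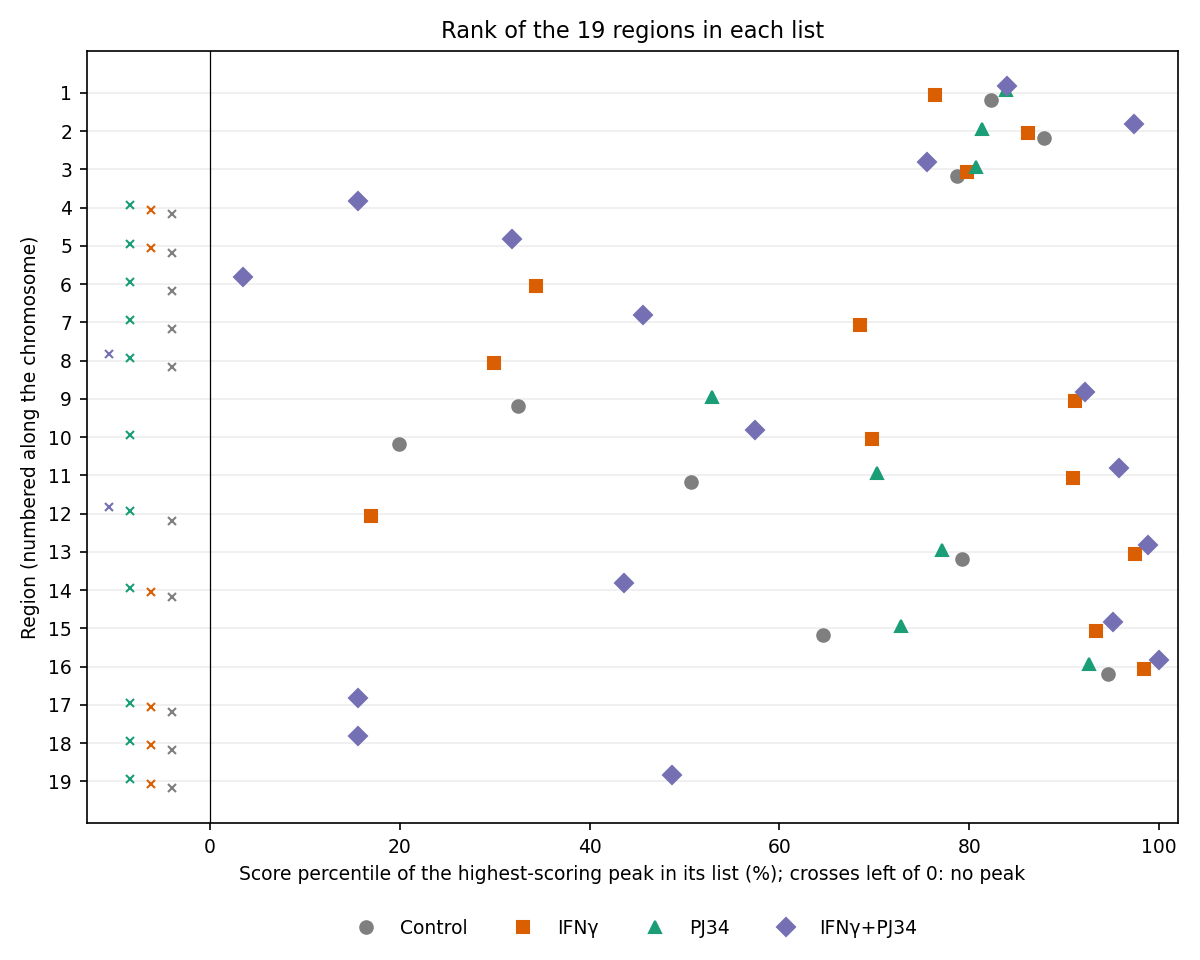
Score percentile of the highest-scoring peak of each of the 19 regions in Control, IFNγ, PJ34 and IFNγ+PJ34, with crosses left of 0 where a list had no peak (region 1 includes peaks just outside 50 kb). In regions 9, 11, 13 and 15 the IFNγ and IFNγ+PJ34 points lie together to the right of the Control and PJ34 points, and in regions 6 and 7 the IFNγ+PJ34 point lies to the left of the IFNγ point.

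To compare presence, a peak was called absent from another list when no peak of that list overlapped it. Of the 14 IFNγ peaks, 5 (35.7%, exact Clopper-Pearson 95% interval 12.8 to 64.9%) were absent from Control, against 16.8% of all IFNγ peaks. They were regions 6, 7, 8 and 12 and the smaller peak of region 9. Of the 8 Control peaks, 0 were absent from IFNγ (interval 0 to 36.9%), against 31.7% of all Control peaks. In the IFNγ+PJ34 list, 9 of 17 peaks had no counterpart in PJ34 (52.9%, 27.8 to 77.0%), against 25.7% of all, and 0 of 13 PJ34 peaks (0 to 24.7%) were absent from IFNγ+PJ34, against 31.6%. In both comparisons the cluster had the larger share in the list with IFNγ and none in the reverse direction. Counted by peak, the list-wide shares lay outside the intervals only between IFNγ+PJ34 and PJ34. The 13 PJ34 peaks lay in 8 regions, however, with 5 of the peaks in region 15. For 0 of 8, the interval given above reaches 36.9%, which covers the share of 31.6%. Most of the absent peaks were low-scoring. In the higher-scoring 50% of each list, 2 of 9 IFNγ+PJ34 peaks (22.2%) were absent from PJ34 and 3 of 9 IFNγ peaks (33.3%) from Control, and against the whole other list 1 of 9 (11.1%) was in both cases. The shares over all peaks under these cut lists were not computed, so the shares of the whole lists do not serve as their background. The intervals cover counting error only and take neighbouring peaks as independent.

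The 2 treatments with PJ34 were then compared with those without it. Of 13 PJ34 peaks, 1 was absent from Control (19.5% of all PJ34 peaks), and of 8 Control peaks, 1 was absent from PJ34 (25.1% of all). Against IFNγ, 6 of the 17 IFNγ+PJ34 peaks had no counterpart (35.3%, 14.2 to 61.7%), as did 27.2% of all. They were regions 4, 5, 14, 17, 18 and 19, with percentiles from 15.6 to 48.7. Of 14 IFNγ peaks, 2 were absent from IFNγ+PJ34 (24.1% of all), the 350 bp peak of region 8 and the 288 bp peak of region 12. Of the 5 IFNγ peaks absent from Control, 3 overlapped a peak of IFNγ+PJ34 and 1 a peak of PJ34, where the shares over all 6842 such peaks were 38.8% and 43.6%.

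A change of rank of at least 20 points was counted in regions with a peak in both lists. Between IFNγ and Control, 4 of 9 regions ranked at least 20 points higher (regions 9, 10, 11 and 15, by 58.7, 49.8, 40.2 and 28.8 points) and 0 lower, against 7.39% higher and 15.6% lower over all regions. Between IFNγ+PJ34 and PJ34, 4 of 8 regions ranked higher by this measure (regions 9, 11, 13 and 15, by 39.4, 25.5, 21.7 and 22.4 points), against 12.7%. Between PJ34 and Control, 1 of 8 did (region 9, by 20.4 points, with region 11 just below at 19.6), against 8.32%. With lists cut to equal length region 11 also passed, at 20.6 points, and with ranks by fold neither did, at 18.8 and 19.5 points. Between IFNγ+PJ34 and IFNγ, 0 of 11 ranked higher (13.9% over all regions) and 2 ranked lower (10.9%), which were regions 6 and 7 at Cxcl9. Regions 2, 9, 11, 13, 15 and 16 ranked at 86.2 to 98.4 in IFNγ, so that a rise of 20 points was not possible there. By fold, the ratio of IFNγ+PJ34 to IFNγ was 2.48, 2.11 and 2.58 in regions 2, 11 and 16. The median ratio was 0.896 over the cluster and 1.1 over all regions. The median change over the cluster was 18.3, 18.8, 1.9 and 1.3 points in these comparisons, against -2.3, -2.6, 0.3 and 0.3 over all regions.

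**Figure D4:**
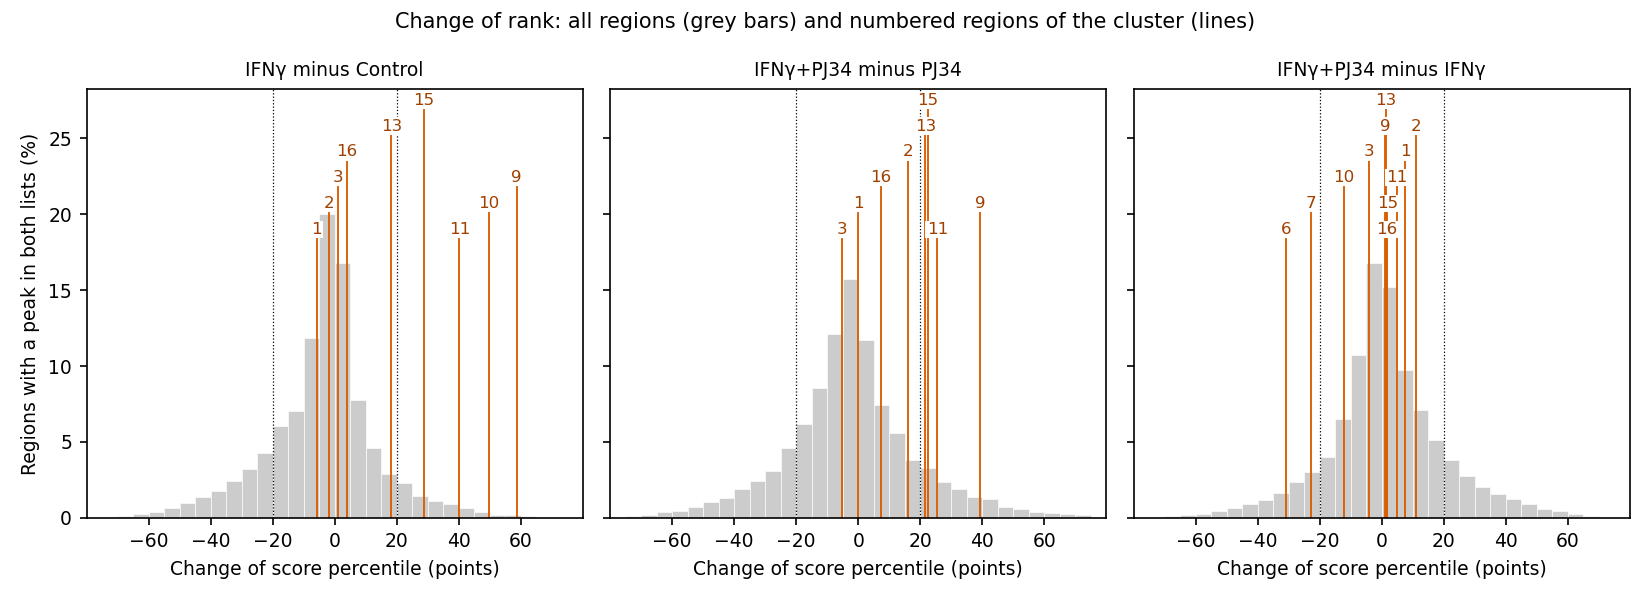
Change of score percentile in points between lists for all regions with a peak in both (grey bars, percent of regions in 5-point bins) and for the numbered regions of the cluster (lines, whose height has no meaning), with dotted lines at 20 points either way. Regions 9, 10, 11 and 15 lie beyond the upper line in IFNγ minus Control, and regions 6 and 7 beyond the lower line in IFNγ+PJ34 minus IFNγ.

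At promoters, the 3 genes were set beside all protein-coding genes. Cxcl9 had a promoter peak in IFNγ and none in Control, as 2.31% of protein-coding genes with a promoter peak in IFNγ did, and Cxcl10 ranked 40.2 points higher in IFNγ, where 1.36% of protein-coding genes with a peak in both ranked at least 20 points higher. Between IFNγ+PJ34 and PJ34, Cxcl9 and Cxcl11 had a peak in the former alone (2.99% of genes), and Cxcl10 ranked at least 20 points higher (2.04%). Cxcl11 had a promoter peak in IFNγ+PJ34 and none in IFNγ (3.81% of genes), although as a pseudogene it is not among the genes counted.

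A pathway list, with genes of the ligand-receptor axis and of signaling to the chemokine genes, was described by the same measure. Of 16 such genes, 15, 14, 13 and 16 had a promoter peak in Control, IFNγ, PJ34 and IFNγ+PJ34, and of the 14 with a peak in Control and IFNγ, 0 differed by 20 points or more in either direction, with a median change of 0.0308 points. Most ranked near the top of every list. Irf8, a macrophage IRF factor, ranked at 90.5 in Control and 98.0 in IFNγ, and Socs1, an inhibitor of JAK signaling, at 96.5 and 99.96. The IFNγ receptor genes Ifngr1 and Ifngr2 ranked at 98.7 and 99.90 in Control and at 93.0 and 93.8 in IFNγ. Cxcr3 had a promoter peak in Control at 50.7 and none in IFNγ or PJ34. Among 12 other CXC chemokine genes, 5 had a promoter peak in Control and 5 in IFNγ, of which 0 ranked higher in IFNγ, and Pf4, the platelet factor gene, ranked 87.9 in Control and 61.3 in IFNγ.

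The Gbp genes, which encode interferon-induced GTPases of host defence, lie in clusters on chromosomes 5 and 3 and were used for comparison. Around the 6 Gbp genes of chromosome 5, 21 IFNγ peaks were found, of which 15 (71.4%) were absent from Control, and around the 4 of chromosome 3, 12 were found, of which 5 (41.7%) were absent. All 15 and all 5 of these were found in IFNγ+PJ34, against 3 of 5 at the chemokine cluster. The length covered was 2.59 and 1.79 times the Control length, and 1.96 times at the chemokine cluster. The cluster of Cxcl1, Cxcl2, Cxcl3, Cxcl5, Cxcl15, Pf4 and Ppbp, other CXC chemokine genes of chromosome 5, had 27 IFNγ peaks, of which 10 (37.0%) were absent from Control, a share close to the 35.7% here. Its length in IFNγ was 0.919 times that in Control, at 29.4 against 32.0 kb, and 3 of its 10 peaks absent from Control were found in IFNγ+PJ34. No test of these differences was possible.

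**Figure D5:**
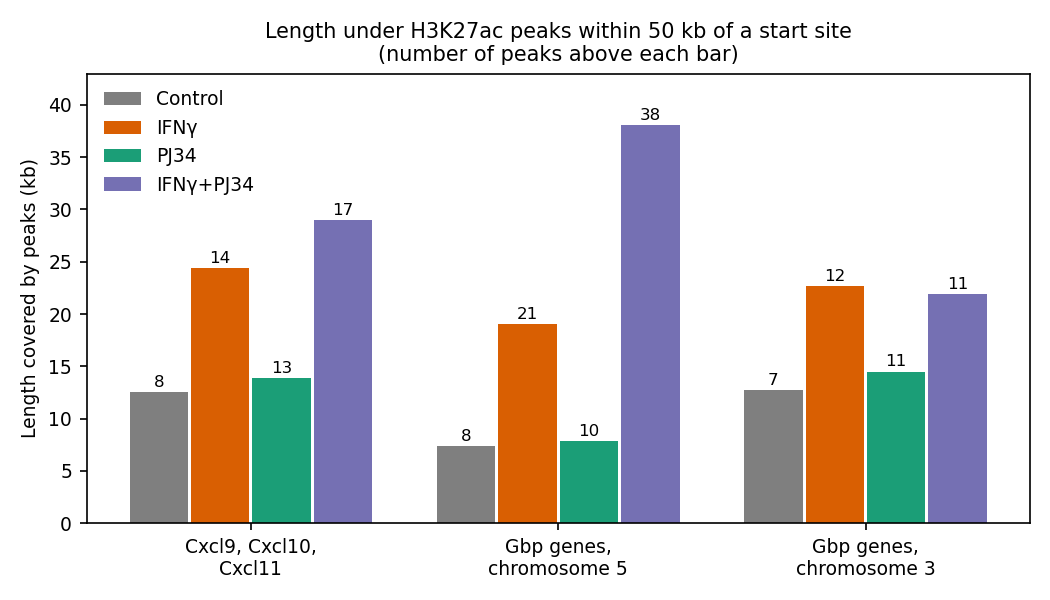
Length in kb under H3K27ac peaks within 50 kb of a start site of the chemokine genes and of the Gbp genes of chromosomes 5 and 3, with the number of peaks above each bar. Each cluster had its smallest length in Control, at 12.5, 7.34 and 12.7 kb, and a larger length in IFNγ, at 24.4, 19 and 22.7 kb.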

How the data were processed

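H3K27ac was measured by ChIP-seq in 8 ChIP and 8 input samples of BMDMs. Per the study's methods, the authors aligned reads to mm10 with Bowtie, ran MACS on each replicate with input as control and a p-value limit of 0.01, and kept the peaks that both replicates shared. The deposited lists give for each peak a score, a fold enrichment over background (a ratio) and −log10 p and −log10 q values, all as deposited by the authors, besides the summit offset. The lists hold no counts, so depth is unknown. Groups came from sample titles.

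From these values, score percentiles, overlaps (bp shared), merged regions and distances to all start sites in GENCODE M21 (GRCm38, the build of the peaks) were computed in Python 3.11.15 with pandas 2.3.3 and numpy 2.4.6. Percentiles take ties at the middle. A promoter peak had its summit within 1 kb of a start site. Exact intervals were computed with scipy 1.17.1. Motifs were searched on both strands, and a site that matched on both was counted once. Sequences came from RefSeq (GRCm38.p6). The functions were tested on simulated data. No test between conditions was made, since each has 1 list.

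The cluster, the gene lists and the settings were chosen with earlier results of these data known, and the sequence stretches and region descriptions were selected after the values were seen. Genes were named when they were members, had a start site in the window or, in a list, had a large change of score percentile of the highest-scoring peak within 50 kb between Control and IFNγ. Cxcr3 was named for its role. One gene of the pathway list is not reported here by name. Alternatives, 2 of which for the rank changes were chosen after seeing the data, changed the distance, the overlap, the threshold, the list length and the ranking measure.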

Additional observations from a re-analysis of the deposited data

Results flagged for a closer look

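With a single list per condition, 3 regions differed in the direction in which their rank moved with IFNγ without and with PJ34, and this difference was not tested. Region 1, at the Naaa start, moved by -5.86 score percentile points in IFNγ against Control and by 0.0558 points in IFNγ+PJ34 against PJ34. Region 2, the intergenic site near Naaa, moved by -1.73 and 16 points. Region 3, at the Sdad1 start, moved by 1.09 and -5.16 points. None of these regions lies at a chemokine start site.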

How the results depend on the processing

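No paired analysis was possible because both replicates of a condition went into its list, nor could a replicate be set aside. Of 24 alternative peak numbers, 21 stayed within 1.5 times the main value, and the others were 9 for IFNγ and 9 for IFNγ+PJ34 with lists cut to their higher-scoring 50%, and 11 for IFNγ+PJ34 at 10 kb. Of 42 alternative counts of absent peaks, 26 stayed within 1.5 times. IFNγ peaks absent from Control numbered 8 with an overlap of at least 50%, 3 with any peak within 1 kb, 3 with lists cut to their higher-scoring 50%, and 1 with IFNγ alone cut in this way. IFNγ+PJ34 peaks absent from PJ34 numbered 2 and 1 of 9 under these last settings, and those absent from IFNγ 0 and 0 of 9. IFNγ peaks absent from IFNγ+PJ34 numbered 1 and 0 there, 0 within 1 kb and 5 at 100 kb. PJ34 peaks absent from Control numbered 0 in its higher-scoring 50%, 0 at equal list length and 4 at 100 kb, and Control peaks absent from IFNγ 2 at 100 kb. For these alternative counts of absent peaks, the shares over all peaks were not computed. The counts of regions that moved by 20 points were computed with ranks by fold and at equal list length, chosen after seeing the data. Of 16 such counts 14 stayed within 1.5 times, and regions higher in PJ34 than in Control numbered 2 at equal list length and 0 by fold, against 1.

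For the highest-scoring peak, the percentile by fold was 96.2 in Control, 95.7 in IFNγ and 92.1 in PJ34, so that by fold Control ranked above IFNγ. By width it was 91.0, 93.2 and 91.4, and 98.4 in IFNγ+PJ34, and at equal list length 94.2 in Control and 92.0 in PJ34. The promoter peak of Cxcl9 ranked lower in IFNγ+PJ34 than in IFNγ by score, at 45.6 against 68.5, and by fold, at 23.1 against 71.0. The presence of low-scoring peaks, which carry most of the absent counts, is limited by a depth that is unknown.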
